A study of Mus musculus with 18 samples.

Results

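Glrb, Gtpbp10, BC055324 and Mbnl3 are 4 mouse genes chosen because, in each of 3 mammary tumors, the array of CD29 high CD24 high cells read higher than the arrays of the other 3 sorted fractions of that tumor. They have 9 probe sets among the 45037 on the array that are not controls, and 4 of the 18193 genes that a probe set names alone. The contrast that chose them is given below as a description only. That contrast cannot be tested on the arrays that chose them, so tests are given only for other contrasts. The tests among tumor fractions and of tumors against normal cells reuse tumor arrays. The main fit between the normal populations uses none of them.

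The series holds 18 one-colour Affymetrix arrays, whose values are probe-set signals on a linear scale. Cells of tumors numbered 1, 2 and 7 were sorted on CD29, the integrin beta1 chain, and CD24, a surface glycoprotein, into CD29HCD24H, CD29HCD24L, CD29LCD24H and CD29LCD24L cells, where H is high and L is low; each tumor gave 1 array per fraction. Sorted cells labelled as normal mammary epithelium gave 5 arrays: 2 of CD29HCD24P cells (P is positive), 2 of CD29PCD24H cells and 1 of CD24L cells, and the last array held a reference RNA. The study set out to find genes of tumor-initiating cells, known from it to be the CD29HCD24H cells. Tumors 1 and 2 are labelled as of transplant generation 1, and tumor 7 carries no generation; the labels give no genotype, strain, age or treatment for any group. The study is known for a p53-null mouse mammary tumor model, and the cells a transplant host contributes to a tumor fraction are not separated out here.

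Median signals lay between 71.6 and 104.2 units on the 18 arrays, and the number of arrays limits the precision. The normal CD29HCD24P and CD29PCD24H arrays carried the markers of their compartments: the mean of 9 basal genes was 13.73 to 13.86 in the first and 7.32 to 7.45 in the second on the log2 scale, and that of 9 luminal genes was 9.79 to 9.95 and 13.06 to 13.28. The normal CD24L array went against its epithelial label, with 10 fibroblast genes at a mean of 14.15 and the luminal genes at 7.79, and it enters the fit of the normal cells only as a group of its own. The ratio of the 3' to the 5' actin control probe sets, which rises as RNA or its amplified copy gets shorter, was 14.4 to 99.3 on the tumor arrays and 3.08 to 24.7 on the normal ones.

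The 4 genes belong to unrelated pathways. Glrb encodes the beta subunit of the inhibitory glycine receptor, a chloride channel of spinal cord and brainstem synapses; the beta subunit binds the scaffold protein gephyrin and needs alpha subunits to form the usual channel. Gtpbp10 encodes a GTPase of the Obg family that acts in the assembly of the large subunit of the mitochondrial ribosome. BC055324 is the mouse counterpart of human FIRRM, a partner of the ATPase FIGNL1 in DNA repair. Mbnl3 encodes a muscleblind protein, a zinc-finger RNA-binding protein that regulates alternative splicing and is best known from muscle development.

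In the RefSeq annotation of build GRCm38.p6, Glrb lies at chr3:80843598-80913660, Gtpbp10 at chr5:5537454-5559541, BC055324 at chr1:163945993-163994809 and Mbnl3 at chrX:51113494-51205990, all matched by symbol. All 4 lie on the minus strand. Because their levels are set side by side across fractions, the 250 bases before the start that RefSeq's promoter table uses for each gene are shown 5' to 3', with matches to the motifs searched in capitals. For BC055324 the last bases of that window lie within the gene's annotated span.
Glrb, chr3:80913661-80913910, minus strand: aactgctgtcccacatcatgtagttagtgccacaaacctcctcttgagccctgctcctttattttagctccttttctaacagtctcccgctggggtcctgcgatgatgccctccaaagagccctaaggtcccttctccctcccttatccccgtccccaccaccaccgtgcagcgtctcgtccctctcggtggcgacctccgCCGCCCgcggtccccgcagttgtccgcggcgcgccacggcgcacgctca
Gtpbp10, chr5:5559542-5559791, minus strand: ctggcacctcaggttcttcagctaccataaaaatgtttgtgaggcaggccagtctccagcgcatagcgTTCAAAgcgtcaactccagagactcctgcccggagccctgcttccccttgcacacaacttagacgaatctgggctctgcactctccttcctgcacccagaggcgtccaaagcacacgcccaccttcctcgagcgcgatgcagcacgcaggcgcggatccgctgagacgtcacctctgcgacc
BC055324, chr1:163994797-163995046, minus strand: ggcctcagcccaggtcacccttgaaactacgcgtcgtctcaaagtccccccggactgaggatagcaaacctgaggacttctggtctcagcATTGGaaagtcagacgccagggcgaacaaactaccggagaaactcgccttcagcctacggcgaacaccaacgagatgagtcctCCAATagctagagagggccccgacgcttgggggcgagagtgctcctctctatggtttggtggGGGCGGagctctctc
Mbnl3, chrX:51205991-51206240, minus strand: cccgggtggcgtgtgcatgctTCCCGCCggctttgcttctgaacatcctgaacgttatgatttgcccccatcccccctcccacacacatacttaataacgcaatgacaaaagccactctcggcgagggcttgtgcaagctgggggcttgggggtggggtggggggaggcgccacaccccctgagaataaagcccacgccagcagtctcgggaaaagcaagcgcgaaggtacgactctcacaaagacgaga

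Of 6 short motifs searched on both strands, none was found in more than 2 of the 4 windows. CCAAT matched at 2 places in BC055324 and occurs in 33.9% of 32851 windows of the same length. GGGCGG matched in Glrb and BC055324 and occurs in 32.7% of windows; TTTGAA matched in Gtpbp10 (16.0% of windows) and GGCGGGA in Mbnl3 (9.75%). TGACGTCA (1.55%) and TATAAA (12.4%) were not found in the 4 windows. The windows held 58.8% to 62.4% G and C, against a median of 52.4% over all windows, with quartiles of 45.2% and 61.2%. Only the Glrb window, at 62.4%, lay above the upper quartile. A match describes letters only.

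Every probe set of the 4 genes passed the filter that left out the 40% of probe sets with the lowest mean. In the tumors, the CD29HCD24H array was the highest of its tumor in all 3 tumors for 7 of the 9 probe sets. Over the 27022 probe sets kept, this was so for 943, or 3.49%; since the rule picked the genes on this contrast, nothing is read from the excess. Differences below are of log2(signal + 32), a scale that shrinks differences between dim probe sets, and an increase of 1 is a doubling of signal well above that offset. In such sorted samples, fewer cells of a type and less RNA per cell cannot be told apart.

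Glrb was read by the probe sets 1422504_at and 1459850_x_at. The first, the brighter one over the sorted arrays, gave 723 units in tumor 1, 2036 in tumor 2 and 312 in tumor 7 in CD29HCD24H cells. In CD29HCD24L cells the same tumors gave 212, 883 and 68.0 units. In CD29LCD24H cells they gave 268, 1326 and 33.2 units. In CD29LCD24L cells they gave 145, 496 and 74.5 units. CD29HCD24H was the highest fraction of each tumor, but groups overlapped across tumors, because tumor 2 was high throughout: even its lowest fraction exceeded the CD29HCD24H array of tumor 7. Within a tumor, CD29HCD24H exceeded the mean of the other fractions by 1.63 ± 0.36 (SD, n = 3 tumors), with 1.69 in tumor 1, 1.25 in tumor 2 and 1.96 in tumor 7. The second probe set gave 0.60 ± 0.21 and was higher than each other fraction in 9 of 9 comparisons within a tumor.

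Gtpbp10 was read by 1434030_at and 1436543_at. The brighter probe set 1434030_at gave 2705, 1707 and 1816 units in CD29HCD24H cells of tumors 1, 2 and 7. The CD29LCD24H arrays gave 1453, 1200 and 789 units, and the CD29HCD24L arrays gave 1858, 939 and 460 units. The CD29LCD24L arrays gave 676, 349 and 364 units and were the lowest of each tumor. The CD29HCD24H arrays overlapped the others only through the CD29HCD24L array of tumor 1, which was above the CD29HCD24H arrays of tumors 2 and 7. The difference from the mean of the other fractions was 1.36 ± 0.36 (SD, n = 3), and that from CD29LCD24L cells alone was 2.12 ± 0.15. The dimmer 1436543_at gave a difference of 0.51 ± 0.45, and 0.33 without tumor 2; in tumor 1 it was 0.01, and 7 of its 9 within-tumor comparisons were positive.

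BC055324 was read by 1434365_a_at and 1437186_at. In CD29HCD24H cells 1434365_a_at gave 1710, 2521 and 1303 units in tumors 1, 2 and 7. The CD29HCD24L arrays gave 616, 722 and 431 units, the CD29LCD24H arrays 543, 1058 and 979 units, and the CD29LCD24L arrays 352, 871 and 925 units. BC055324 was the only one of the 4 whose brighter probe set had all CD29HCD24H arrays above every array of the other fractions, the nearest being 1303 and 1058 units. The difference from the mean of the others was 1.35 ± 0.49 (SD, n = 3), smallest in tumor 7 at 0.80, where the CD29LCD24H array was 0.40 lower than CD29HCD24H. The second probe set gave 0.67 ± 0.45 and was positive in 9 of 9 comparisons.

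Mbnl3 was read by 3 probe sets. The brightest, 1434678_at, gave 4293, 3214 and 1610 units in CD29HCD24H cells of tumors 1, 2 and 7. The CD29HCD24L arrays gave 3034, 989 and 407 units, the CD29LCD24H arrays 2476, 1709 and 758 units, and the CD29LCD24L arrays 1864, 1062 and 476 units. Tumor 1 was the highest and tumor 7 the lowest in every fraction, so the groups overlapped. CD29HCD24H exceeded the mean of the others by 1.25 ± 0.38 (SD, n = 3), in every tumor. The probe sets 1422836_at and 1442549_at gave 0.78 ± 0.22 and 0.48 ± 0.20, the second in 8 of 9 comparisons, with CD29LCD24L above CD29HCD24H in tumor 7.

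**Figure D1:**
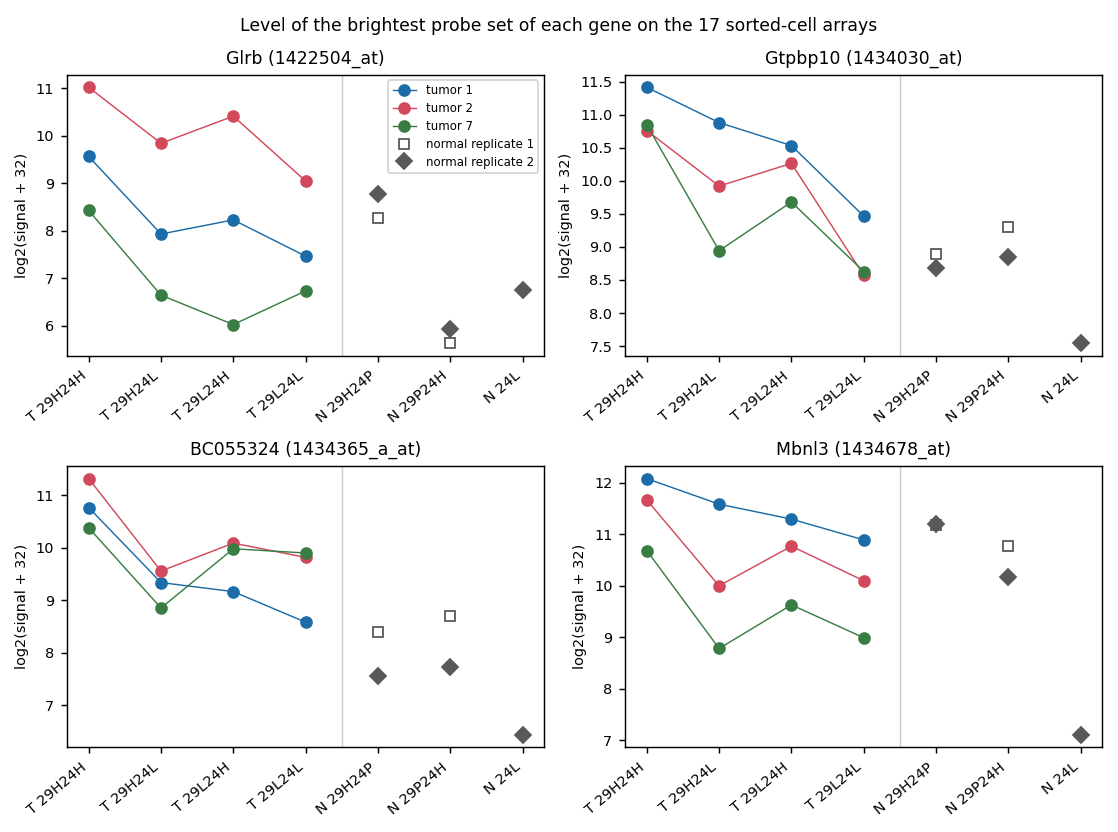
Level of the brightest probe set of each gene, as log2(signal + 32) on the vertical axis, on the 17 sorted-cell arrays, with T for tumor and N for normal and the CD29 and CD24 levels in the names of the fractions. Lines join the 4 fractions of a tumor; the CD29HCD24H point is the highest of each line in all 4 panels, and Glrb reads 5.63 and 5.93 on the 2 normal CD29PCD24H arrays.

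**Figure D2:**
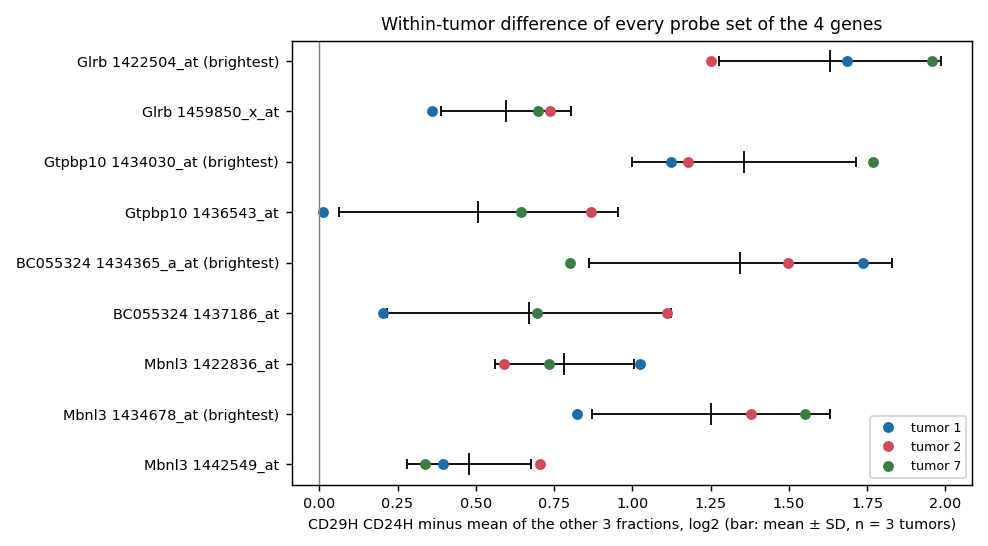
CD29HCD24H minus the mean of the other 3 fractions of the same tumor, in log2 units, for each of the 9 probe sets. Dots are tumors and bars the mean ± SD of 3 tumors; the brightest probe set of each gene lies between 1.25 and 1.63, and the others between 0.48 and 0.78.

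In order of the moderated t of a tumor-blocked limma fit with 1 probe set per gene over 10916 genes, the 4 members came first, with Glrb at 1.63, Gtpbp10 at 1.36, Mbnl3 at 1.25 and BC055324 at 1.35. The next in order were Edar, a receptor of the tumor necrosis factor receptor family, at 1.11, Zc3hav1l at 1.08, Actr6 at 1.05 and Fignl1 at 1.13. The 4 members were past an adjusted p of 0.05 in that fit and the next 4 were not, which describes the choice and tests nothing.

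The levels of the 4 genes moved together across fractions after the mean of each tumor was taken off. Over the 12 tumor arrays the correlation between the brightest probe sets was 0.89 for Gtpbp10 and Mbnl3, 0.86 for BC055324 and Mbnl3, 0.83 for Glrb and Gtpbp10, 0.81 for Glrb and Mbnl3, 0.75 for Glrb and BC055324 and 0.72 for Gtpbp10 and BC055324. These arrays share the tumors and the contrast that chose the genes, so the correlations are a description. The genes most like each member, by the same measure over the same 12 arrays, were others than the members. They were Aasdhppt, Zfp24 and Srsf3 for Glrb (each 0.95), and St6gal1 (0.98), Casd1 and Zfp560 (both 0.97) for Gtpbp10. For BC055324 they were Dok7, Dll1 (both 0.97) and Edar (0.96), and for Mbnl3 they were Pus7l (0.97), Cldn12 and Pdk1 (both 0.96).

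The other genes of the members' pathways are given in the same contrast, again as a description. Of 26 mitochondrial ribosome assembly genes other than Gtpbp10, 19 had a positive mean (47.8% of all probe sets kept did), and the median was 0.11. Of these 26, Tfb1m and Lrpprc were highest in all 3 tumors (3.49% of all probe sets kept were). Mtg2, a related GTPase of that ribosome, gave 1.07 ± 0.70 and Mtg1 0.10 ± 0.43. Of 17 muscleblind and partner splicing genes other than Mbnl3, 9 had a positive mean, the median was 0.04 and none was highest in all 3 tumors. The muscleblind paralogs Mbnl1 and Mbnl2 gave −0.31 ± 0.37 and 0.08 ± 0.15. Of the glycine and GABA-A receptor genes other than Glrb, only 5 of 20 passed the filter, and none of them were glycine receptor alpha subunits: Glra1, Glra2, Glra3 and Glra4 were all left out as dim. Gphn, which encodes gephyrin, gave 0.40 ± 0.59, and the median of the 5 was −0.71.

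Other cell types moved with the fractions. The mean of 10 fibroblast genes was 9.11 to 10.55 in CD29HCD24H, 13.05 to 13.55 in CD29HCD24L, 9.04 to 11.67 in CD29LCD24H and 10.31 to 11.28 in CD29LCD24L cells. The mean of 8 T and NK cell genes was 5.54 to 6.26 in CD29HCD24H and 7.999 to 9.42 in CD29LCD24L cells. It was 5.79 to 6.61 in CD29LCD24H and 6.47 to 6.85 in CD29HCD24L cells, so CD29LCD24L cells stood apart from the rest. The mean of 18 cell division genes was 9.88 to 11.21 in CD29HCD24H cells and at most 10.55 in the others. Of them, 18 of 18 had a positive mean difference against 47.8% of all probe sets kept, with a median of 0.62 against −0.02. CD29HCD24H was highest in all 3 tumors for 10 of 18, against 3.49% of all probe sets kept. In the contrast of CD29HCD24H against the mean of the other fractions, 0 of 10 fibroblast, 0 of 9 macrophage, 0 of 5 T and NK cell and 0 of 6 endothelial genes kept had a positive mean, with medians of −1.49, −0.68, −1.72 and −0.62. Of the epithelial lists, 3 of 8 basal and 3 of 9 luminal genes kept had a positive mean, with medians of −0.15 and −0.35. The mean of 9 basal genes was 7.25 to 10.76 on the CD29HCD24H arrays, lowest in tumor 7. It was 7.96 to 10.59 in CD29HCD24L, 7.27 to 10.15 in CD29LCD24H and 7.75 to 10.17 in CD29LCD24L cells, each also lowest in tumor 7. The actin ratio was 23.2 to 72.5, 56.8 to 77.0, 49.6 to 58.7 and 14.4 to 99.3 in CD29HCD24H, CD29HCD24L, CD29LCD24H and CD29LCD24L cells. The part of these values in the levels of the 4 genes was not tested.

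The first of the tested contrasts asked whether the other 3 tumor fractions differed among themselves. No member passed in any of the 3 contrasts, fitted with limma on 9 arrays and adjusted with Benjamini-Hochberg. Of 27022 probe sets, 0 (0%) were called between CD29LCD24H and CD29LCD24L cells by limma, with 923 at an unadjusted p under 0.05; 170 (0.629%) were called between CD29HCD24L and CD29LCD24L cells, and 222 (0.822%) between CD29HCD24L and CD29LCD24H cells. The largest member difference was that of Gtpbp10 1434030_at, higher in CD29LCD24H than in CD29LCD24L cells by 1.27 ± 0.51 (SE; adjusted p = 1.00), in all 3 tumors. Its difference between CD29HCD24L and CD29LCD24L cells was 1.03 ± 0.51 (adjusted p = 0.582), also in all 3 tumors. Arrays of one tumor share its number, and with the tumor as a block these gave adjusted p = 0.427 and 0.134; the blocked fit called 0 (0%), 685 (2.53%) and 652 (2.41%) probe sets in the 3 contrasts. For the brightest probe sets of the other members, the differences between these fractions were within ± 0.57 and their standard errors were 0.45 to 1.06. With the tumor as a block, their standard errors were 0.31 to 0.39 and none of them passed.

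In normal epithelium, Glrb was higher in the CD29HCD24P cells, which carried the basal markers, than in the CD29PCD24H cells, which carried the luminal ones. The signals of 1422504_at were 276 and 405 units in the 2 CD29HCD24P arrays and 17.6 and 29.1 in the 2 CD29PCD24H arrays. Those of 1459850_x_at were 516 and 481 against 30.8 and 25.7 units. The groups of 2 arrays did not overlap for either probe set. The share of all probe sets that separated in this way was not counted, so nothing is read from it. The differences were 2.73 ± 0.32 (SE; limma adjusted p = 0.000386) and 3.14 ± 0.27 (adjusted p = 7.10e-05), in both replicates. Of 27022 probe sets, 5638 (20.9%) were called, and 2833 (10.5%) were higher, so calls were frequent here. With the preparation number as a block 5963 (22.1%) were called and both Glrb calls held. The spread in this fit rests on pairs of arrays, and on simulated data it called more unchanged probe sets than its threshold allows. With all 17 sorted arrays in 1 fit, where the spread of Glrb between tumors enters, the Glrb calls were lost (adjusted p = 0.281 and 0.153). Without the CD24L array, an alternative chosen after seeing the data, they were kept (adjusted p = 0.000311 and 6.26e-05).

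Mbnl3 gave probe sets that disagreed in normal cells. The dim 1442549_at was higher in CD29HCD24P cells by 1.13 ± 0.30 (SE; limma adjusted p = 0.0265), with 461 and 399 units against 141 and 223. This call was lost without the filter on low means (adjusted p = 0.0825), without either CD29HCD24P array (0.168 and 0.108), which leaves 1 array assumed to vary like the other groups, and with all 17 arrays (0.390). The brightest, 1434678_at, gave 2273 and 2315 units against 1709 and 1126, a difference of 0.71 ± 0.28 (adjusted p = 0.116); without the first CD29PCD24H array, where the same assumption is made for the array left, it was 1.01 and passed (adjusted p = 0.00554). The third, 1422836_at, went the other way by −0.42 ± 0.28 (adjusted p = 0.348). Gtpbp10 1434030_at gave 443 and 377 units against 601 and 429, a difference of −0.29 ± 0.28 (adjusted p = 0.519). BC055324 1434365_a_at gave 304 and 157 units against 383 and 181, a difference of −0.24 ± 0.40 (adjusted p = 0.727).

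Of the genes related to the members, 5 of 20 muscleblind and partner splicing genes, 2 of 6 in the glycine and GABA-A list and 1 of 27 mitochondrial ribosome genes were called between the normal populations, beside 20.9% of all probe sets. Of the splicing genes, Rbfox3 (3.73 ± 0.37), Celf2 (1.67 ± 0.22), Khdrbs3 (1.18 ± 0.27) and Mbnl1 (0.85 ± 0.22) were higher in CD29HCD24P cells, and Esrp2, an epithelial splicing factor, was lower (−2.33 ± 0.29). In the glycine and GABA-A list, 1 of 6 genes was higher, which was Glrb itself, and Gabrp was lower (−1.08 ± 0.32). Of the mitochondrial ribosome genes, Tfb1m was lower (−1.20 ± 0.28). In the same comparison, 9 of 9 basal genes were higher and 8 of 9 luminal genes lower. Of the genes of the sort markers, Itgb1 was higher (1.20 ± 0.32, limma adjusted p = 0.0271) and Cd24a lower (−1.16 ± 0.20, adjusted p = 0.00333).

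Tumors and normal epithelium were then compared through the mean of the 4 fractions of each tumor and the mean of both populations of each normal preparation. The tumor means include the CD29HCD24H arrays that chose the genes. If arrays vary equally and independently, errors of the mean of 4 fractions are uncorrelated with those of the difference that chose them. Independence did not hold among the 3 other fractions, where deviations of same-tumor arrays correlated at 0.27 to 0.60. A correlation equal for all arrays of a tumor would still leave these errors uncorrelated, but equal variances and correlations were not tested. The excess on the CD29HCD24H arrays also enters the tumor means, so the call below may not be separate from the choice. With the CD29HCD24H arrays included, BC055324 was higher in the tumors, as 1434365_a_at means of 9.46, 10.20 and 9.78 in tumors 1, 2 and 7 against 8.54 and 7.65. The difference was 1.72 ± 0.38 (SE; limma adjusted p = 0.0398). The groups did not overlap, but the share of all probe sets that separated in this way was not counted. The second probe set, 1437186_at, gave 1.01 ± 0.27 (adjusted p = 0.0663). Of 27022 probe sets, 1940 (7.18%) were called, 970 of them higher (3.59%). With tumor means of the 3 other fractions alone, an alternative chosen after seeing the data, the difference of 1434365_a_at was 1.38 and the call was lost (adjusted p = 0.0685). The call was also lost without tumor 1 (adjusted p = 0.0599), without tumor 2 (0.0649) and without normal preparation 1 (0.182) or 2 (0.389), which leaves 1 preparation assumed to vary like the tumors. With the actin ratio as a covariate, also chosen after seeing the data, the difference was 1.24 (adjusted p = 0.887). That ratio was 14.4 to 99.3 on tumor and 3.08 to 24.7 on normal arrays. The covariate thus largely follows the group, and this fit cannot tell the actin ratio and tumor status apart.

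The other members did not pass. Gtpbp10 1434030_at had means of 10.58, 9.88 and 9.53 in tumors 1, 2 and 7 against 9.10 and 8.76, with a difference of 1.06 ± 0.38 (SE; limma adjusted p = 0.125). Glrb 1422504_at had means of 8.30, 10.08 and 6.96 against 6.95 and 7.35, with tumor 7 within the normal range, and a difference of 1.29 ± 0.77 (adjusted p = 0.318). Mbnl3 1434678_at had means of 11.46, 10.63 and 9.52 against 10.97 and 10.69, and a difference of −0.29 ± 0.53 (adjusted p = 0.755). Of 27 mitochondrial ribosome assembly genes 1 was called, Mterf3, lower in tumors by −1.49 ± 0.29. Of 19 muscleblind and partner genes 1 was called, Khdrbs3, lower by −2.40 ± 0.27. Over all probe sets 7.18% were called, so nothing about these pathways is read from the counts. In this comparison 9 of 10 fibroblast and 4 of 9 macrophage genes kept were called higher in tumors, beside 3.59% of all probe sets. Their part in the difference of BC055324 was not tested.

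**Figure D3:**
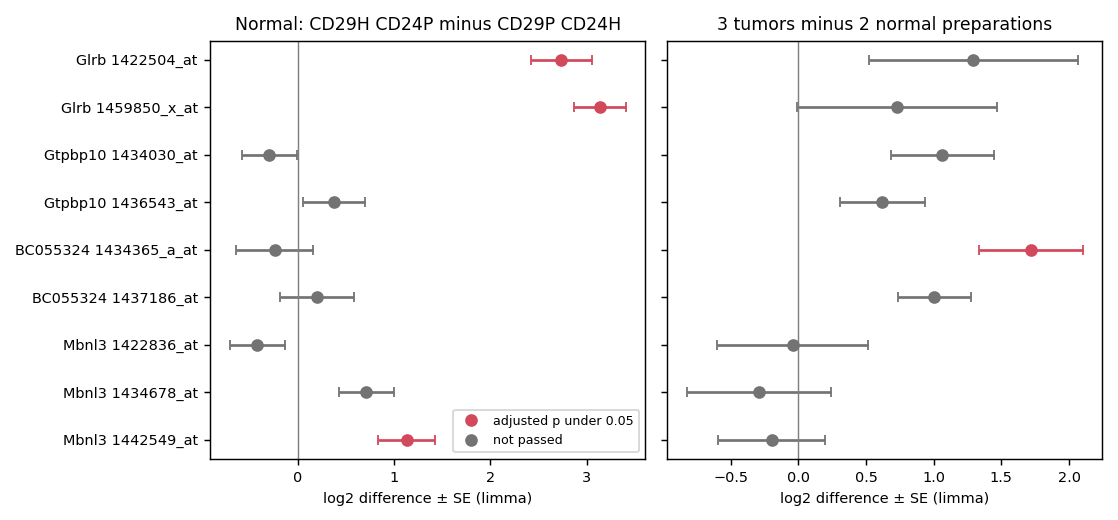
Differences in log2 units, with SE from limma, for the 9 probe sets in 2 comparisons other than the one that chose the genes: normal CD29HCD24P minus CD29PCD24H cells (left) and 3 tumors minus 2 normal preparations (right). Red points mark an adjusted p under 0.05: both Glrb probe sets and Mbnl3 1442549_at on the left and BC055324 1434365_a_at on the right, where the tumor means include the CD29HCD24H arrays.

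In order of mean level over the 7 sorted groups, tumor CD29HCD24H was the highest for all 4 brightest probe sets, which restates the choice among the tumor groups. For 2 dimmer probe sets normal CD29HCD24P was highest, at 9.05 against 8.66 in tumor CD29HCD24H for Glrb 1459850_x_at and 8.85 against 8.44 for Mbnl3 1442549_at. For Glrb 1422504_at the order went from tumor CD29HCD24H at 9.67 ± 1.30 (SD, n = 3) to normal CD29HCD24P at 8.52 ± 0.36 (n = 2), tumor CD29LCD24H at 8.22 ± 2.19 and CD29HCD24L at 8.14 ± 1.61, then CD29LCD24L at 7.75 ± 1.18, the normal CD24L array at 6.74 and normal CD29PCD24H at 5.78 ± 0.21. The tumor groups other than CD29HCD24H differed from each other by less than their spread between tumors, a spread that ignores the pairing of fractions by tumor. For Mbnl3 1434678_at normal CD29HCD24P came second at 11.18 ± 0.02, after tumor CD29HCD24H at 11.47 ± 0.72, again by less than the spread between tumors, and the normal CD24L array was last at 7.11. For BC055324 1434365_a_at all 4 tumor fractions, from 9.25 to 10.82, came before the normal groups, from 6.44 to 8.21. For Gtpbp10 1434030_at tumor CD29LCD24L at 8.89 ± 0.50 lay between normal CD29PCD24H at 9.08 ± 0.32 and normal CD29HCD24P at 8.78 ± 0.15, by less than the spread.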

How the data were processed

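The values used are linear signal intensity per probe set as deposited, made with GCOS by the authors per the submitters' processing notes. Other upstream steps are not given in the sources used here. Per the labels' protocols, a small-sample kit was used to isolate RNA, and 2 cycles of T7 amplification came before labelling. The trimmed mean signal was 500.0 on every array.

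Signals were used as log2(signal + 32) with no further normalization. Of 45101 probe sets, 64 controls were left out; 34945 have 1 gene symbol, 932 several and 9160 none. The 40% with the lowest mean over the arrays of a fit were left out. Linear models were fitted in R 4.3.3 by limma 3.58.1, whose moderated variances followed a trend in intensity, with Benjamini-Hochberg adjustment over all probe sets kept and a threshold of 0.05. A gene was represented in a list by its brightest probe set. Named genes were the members, the 3 genes most like each, the next 4 in order, and from the lists those called plus near paralogs. One of the pathway lists is not reported here. The genes, lists and comparisons were chosen with earlier results of these data known.

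Tumor numbers are the labels' own, and by them same-numbered arrays come from the same tumor. Their deviations from group means correlated at 0.27 to 0.60 over 9 pairs, against −0.40 to 0.02 for other pairs. Deviations within a group cancel out, which pushes the other pairs downward by construction, so they are no neutral reference. For the normal arrays the values were 0.02 and −0.02, mirror images by construction with a pair of arrays per group. Nothing says that normal preparations came from separate animals, so their p-values cover only the spread of these arrays, which may be technical. The fits were tested on simulated data; the normal comparison then called more unchanged probe sets than its threshold allows, after the simulated spread had been set to the moderated estimate because no changed probe set was recovered with the raw one. Promoter sequences are from RefSeq (GRCm38.p6). Python 3.11.15 with matplotlib 3.10.9 drew the figures.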

Additional observations from a re-analysis of the deposited data

Results flagged for a closer look

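The reference RNA array enters no comparison of the report. BC055324 read 2193 units there with 1434365_a_at, above the highest normal array at 383 units, and 411 units with 1437186_at, above the highest normal array at 84.7 units. The array holds pooled commercial RNA and has no replicate.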

How the results depend on the processing

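No member of the 4 genes changed direction in the difference of CD29HCD24H from the mean of the other fractions under a smaller offset (1) or a larger one, quantile normalization or without 1 tumor. The Glrb 1422504_at difference was 1.25 with the larger offset, and 1.47 to 1.82 without 1 tumor. That of Gtpbp10 1436543_at, 0.51 with all tumors, was 0.34 with the larger offset and 0.33 to 0.76 without 1 tumor.

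Counts of probe sets called moved more. Between CD29LCD24H and CD29LCD24L cells the count of 0 became 5 with all 17 sorted arrays and 5 with the actin ratio as a covariate, and was 0 to 3 without 1 array. Between CD29HCD24L and CD29LCD24L cells 170 became 22 with an offset of 1, 275 with the larger one, 36 with no filter, 104 with 1 probe set per gene, 379 with all 17 arrays and 26 with the actin covariate, and 0 to 258 without 1 array. Between CD29HCD24L and CD29LCD24H cells 222 became 124 with an offset of 1 and 422 with all 17 arrays, and 0 to 319 without 1 array. The replicate block (the tumor number) gave 685 and 652 in these 2 contrasts and changed no call of a member; the block with the preparation number gave 5963 between the normal populations and changed no call of a member there either. Between the normal populations 5638 became 3156 with 1 probe set per gene and 1433 with all 17 arrays, and 2844 to 9219 without 1 array. For tumors against normal 1940 became 2178 with tumor means that leave out the CD29HCD24H arrays, 838 with 1 probe set per gene and 0 with the actin covariate, the first and last chosen after seeing the data (as was leaving out the normal CD24L array, which changed no call of a member), and 1 to 3520 without 1 tumor or preparation. Fewer genes are tested with 1 probe set per gene; the other causes were not tested.

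Differences that were not called changed sign when 1 array was left out. Among the tumor fractions these fits had no tumor block, so leaving out 1 array also moves a group mean by the level of its tumor. The ranges there mix that level with the difference between fractions. Between CD29LCD24H and CD29LCD24L cells the ranges were −0.62 to 1.57 for Glrb 1422504_at, −0.67 to 0.77 for 1459850_x_at, −0.11 to 0.60 for BC055324 1434365_a_at, −0.14 to 0.62 for 1437186_at and −1.13 to 0.34 for Mbnl3 1422836_at. Between CD29HCD24L and CD29LCD24L cells they were −0.46 to 1.14 for Glrb 1422504_at, −1.17 to 0.61 for 1459850_x_at, −0.61 to 0.0497 for BC055324 1434365_a_at, −0.72 to 0.0387 for 1437186_at, −0.91 to 0.0629 for Mbnl3 1422836_at and −0.60 to 0.80 for 1434678_at. Between CD29HCD24L and CD29LCD24H cells they were −1.18 to 1.01 for Glrb 1422504_at, −1.24 to 0.54 for 1459850_x_at, −0.73 to 0.24 for Gtpbp10 1434030_at, and, for Mbnl3, −0.85 to 0.61 with 1422836_at, −1.17 to 0.23 with 1434678_at and −0.49 to 0.26 with 1442549_at. There Glrb 1422504_at was also 0.0301 with an offset of 1, 0.0305 with quantile normalization and 0.09 with the actin covariate, and Mbnl3 1442549_at was 0.0461 with quantile normalization. Between the normal populations the ranges were −0.72 to 0.24 for BC055324 1434365_a_at and −0.19 to 0.60 for 1437186_at. For tumors against normal they were −0.44 to 0.54 for Mbnl3 1422836_at, −0.75 to 0.22 for 1434678_at and −0.52 to 0.12 for 1442549_at, and 1422836_at was 0.37 with the actin covariate. The BC055324 1434365_a_at difference was 1.27 to 2.17 without 1 tumor or preparation, and leaving out a normal preparation leaves 1 assumed to vary like the tumors.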
